A study of Mus musculus with 3 samples.

Results

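The genes described here encode the enzymes that turn cholesterol into bile acids in the liver and then join those bile acids to an amino acid. They are the rows named Cyp7a1, Cyp8b1, Cyp27a1, Cyp7b1, Hsd3b7, Akr1d1, Amacr, Slc27a5, Baat and Cyp2c70, which makes 10 of the 41799 genes in the deposited tables. They were chosen by name and function and not by a cut on their levels, though with earlier results of these data known. All 10 passed the filter on low counts, a mean of at least 1 CPM (counts brought to the same library size, with a factor for composition), as did 13153 genes of the whole series.

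Liver RNA of male mice of the C57BL/6 strain (C57BL/6J in the growth protocol) was sequenced at an age of 14 weeks, and each of the 3 groups of 8 mice gave 1 library. Mice of the HFD + DfCS-Ib group ate a high-fat diet (HFD) and received DfCS-Ib at 40 mg/kg by oral gavage in 0.3 ml of water. The compound is known here by its code name only, and the series' design text speaks of a sulfated oligosaccharide. Mice of the HFD group ate the high-fat diet without DfCS-Ib, and mice of the regular chow group ate standard feed. The labels name no genetic change in any group. The sources used here give neither the composition and length of the diet nor the length of dosing, the time of day and fasting state at collection, any vehicle gavage of the other groups or the number of mice behind each library. With 1 library per group there is no replicate check, no p-value was computed, and every difference below describes these libraries and not the conditions.

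Bile acids are made in hepatocytes by a classic pathway, which opens with hydroxylation of cholesterol by Cyp7a1, and by an alternative pathway, which opens with Cyp27a1 and continues with Cyp7b1. The ring enzymes Hsd3b7 and Akr1d1 act on intermediates of both, Cyp8b1 adds the hydroxyl group that sets cholic acid apart from chenodeoxycholic acid, and the side chain is shortened in peroxisomes after Amacr has set its stereochemistry. Slc27a5 attaches coenzyme A to bile acids, and Baat joins them to an amino acid, in mice mainly taurine. Cyp2c70 gives mouse bile its muricholic acids. Returning bile acids lower synthesis through the receptor FXR in the liver and through the hormone FGF15 from the ileum.

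The HFD + DfCS-Ib, HFD and regular chow libraries held 10969699, 12279537 and 11028671 counts over all genes. For a gene listed at 0, the floor was set at 3 counts, which is 0.280, 0.233 and 0.279 CPM in the same order. The 95% exact interval of 0 counts reaches slightly higher, to 0.344, 0.287 and 0.343 CPM. Every gene of the synthesis and conjugation set lay far above both. All 8 of 8 hepatocyte markers were measured, at 145008, 131363 and 163203 CPM summed, so the markers of the labelled tissue were present in every library. Most of the sum was Alb (93946, 85030 and 112771 CPM). Cps1 (78.0, 48.4 and 112 CPM) was 2.31-fold lower in HFD than in regular chow. Its row lies on a scaffold and not on a chromosome, so its values are uncertain. In bulk tissue, fewer cells of a type and less RNA per cell cannot be told apart. Ranges in parentheses are 95% exact (Clopper-Pearson) intervals and cover counting error only. A fold is a ratio of scaled counts, whereas a gene was counted as 2-fold apart on the log2 ratio of CPM plus 1, which runs slightly smaller.

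At least 2-fold differences between libraries were seen for 5 of the 10 genes, and the other 5 stayed within a log2 ratio of 0.89 in every comparison. Against regular chow, the HFD library held less Cyp7a1 and Cyp8b1 RNA and more Hsd3b7 and Cyp2c70 RNA. Against HFD, the HFD + DfCS-Ib library held more Cyp7b1 RNA and, just under the 2-fold mark, more Cyp7a1 RNA (log2 ratio 0.99). Short of the mark there, Cyp8b1 was also higher (0.87), and Akr1d1 (-0.89) and Hsd3b7 (-0.83) were lower. Against regular chow, the HFD + DfCS-Ib library held more Cyp7b1 and Cyp2c70 RNA.

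By number, 2 of 10 genes passed the 2-fold mark upward and 2 passed it downward in the HFD library relative to regular chow, where 3.47% of all 13153 measured genes were that much higher and 2.27% that much lower. Between the HFD + DfCS-Ib and HFD libraries 1 of 10 passed it upward and 0 downward, beside 2.46% and 2.02% of all measured genes. Between the HFD + DfCS-Ib and regular chow libraries 2 of 10 passed it upward and 0 downward, beside 1.62% and 0.433%. The median log2 ratio of the 10 genes was 0.17, -0.01 and 0.12 in these comparisons, beside 0.02, -0.01 and 0.00 over all measured genes. The medians lay near 0 although single genes lay far from it, on either side in HFD against regular chow and on the upper side in HFD + DfCS-Ib against regular chow. The 3 comparisons share libraries, so a gene that is unusual in a library enters 2 of them.

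**Figure D1:**
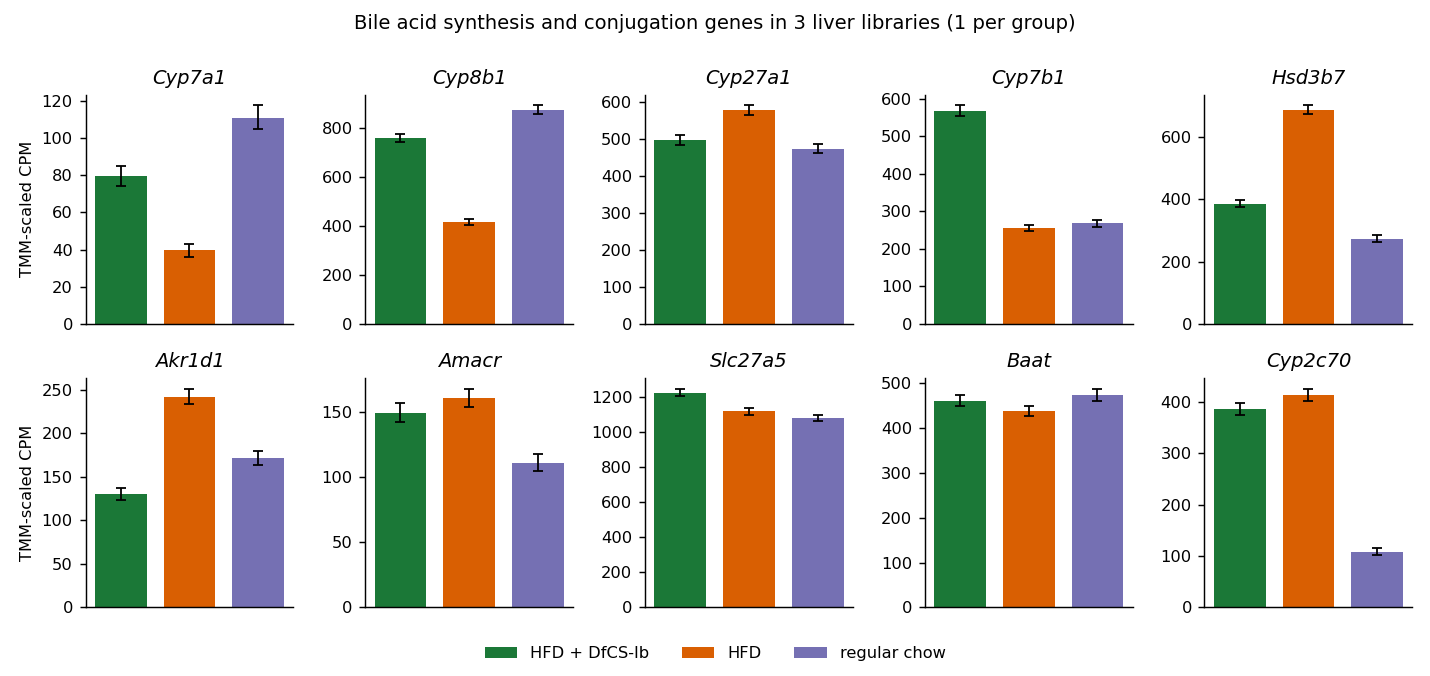
Scaled level (TMM-scaled CPM, from 0) of each of the 10 genes in the HFD + DfCS-Ib, HFD and regular chow libraries; bars are single libraries and error bars are 95% exact counting intervals. Cyp7a1 and Cyp8b1 were lowest in the HFD library, Hsd3b7 and Akr1d1 were highest there, Cyp7b1 was highest in the HFD + DfCS-Ib library, and Cyp2c70 was lowest in the regular chow library.

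Cyp7a1 (gene ID 13122, mm10 chromosome 4, 6264113 to 6275631, minus strand, 6 exons in GENCODE) encodes the cholesterol hydroxylase that sets the pace of the classic pathway. It measured 79.5 CPM in the HFD + DfCS-Ib library, 39.6 CPM in the HFD library and 111 CPM in the regular chow library, from 853, 510 and 1196 counts. The HFD library was the lowest and the regular chow library the highest. The level was 2.80-fold (2.53 to 3.12) lower in HFD than in regular chow, a distance reached by 2.33% of all measured genes. It was 2.01-fold (1.80 to 2.24) higher in HFD + DfCS-Ib than in HFD, a log2 ratio of CPM plus 1 of 0.99 that falls just short of the 2-fold mark and moves to 1.0025 with a pseudocount of 0.1 CPM. The HFD + DfCS-Ib library remained 1.40-fold (1.28 to 1.53) below regular chow, and it lay 55.8% of the way from HFD to regular chow on the CPM scale. Per length, Cyp7a1 was the least abundant of the 10 transcripts in every library, at 15.6, 8.36 and 21.8 RPKM (counts per kilobase of gene length, scaled to library total).

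Cyp8b1 (gene ID 13124, chromosome 9, 121914356 to 121916305, minus strand) lies in a single exon and encodes the sterol hydroxylase on which cholic acid depends. It measured 758 CPM in HFD + DfCS-Ib, 415 CPM in HFD and 872 CPM in regular chow, in the same order of libraries as Cyp7a1. The level was 2.10-fold (2.03 to 2.17) lower in HFD than in regular chow, and its log2 ratio of -1.07 became -0.97 on total counts without the composition factor, which is short of the 2-fold mark. It was 1.83-fold (1.76 to 1.89) higher in HFD + DfCS-Ib than in HFD, with 6.34% of measured genes at least as far apart. The HFD + DfCS-Ib library lay 1.15-fold (1.12 to 1.19) below regular chow, 75.02% of the way from HFD to it. Among 22052 protein-coding genes its RPKM ranked 136 in HFD + DfCS-Ib, 248 in HFD and 116 in regular chow.

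The sequence before the start is shown for genes that were at least 2-fold apart in a comparison, to set motifs of liver factors beside their values. RefSeq promoter windows on GRCm38.p6 (the assembly called mm10), 250 bases before to 50 after the start, were matched by symbol for 5 of the 10 genes (Cyp8b1, Cyp2c70, Hsd3b7, Cyp27a1 and Akr1d1). Both strands were searched for CAAGGNCA, the recognition site of the receptor NR5A2, for CAAAGTCCA, a motif of HNF4A, and for TTATGNAA, the D-box motif of DBP and its relatives. These were present in 6.71%, 0.475% and 3.38% of all 32851 windows. The 250 bases before the start are printed 5′ to 3′ on the gene's strand for the 3 of these genes that passed the 2-fold mark, with matches in capitals, from chr9:121916306-121916555 (minus strand), chr19:40187287-40187536 (minus strand) and chr7:127800359-127800608 (plus strand).
Cyp8b1: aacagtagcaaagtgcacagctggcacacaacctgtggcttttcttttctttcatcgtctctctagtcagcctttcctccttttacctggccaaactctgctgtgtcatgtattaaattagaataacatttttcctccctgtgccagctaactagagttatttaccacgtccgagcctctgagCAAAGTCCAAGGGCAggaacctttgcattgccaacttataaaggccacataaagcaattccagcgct
Cyp2c70: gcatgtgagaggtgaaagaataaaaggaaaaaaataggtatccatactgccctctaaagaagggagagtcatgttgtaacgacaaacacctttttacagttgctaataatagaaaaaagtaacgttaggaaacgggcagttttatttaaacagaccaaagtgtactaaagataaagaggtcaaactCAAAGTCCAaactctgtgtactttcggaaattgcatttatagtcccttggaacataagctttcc
Hsd3b7: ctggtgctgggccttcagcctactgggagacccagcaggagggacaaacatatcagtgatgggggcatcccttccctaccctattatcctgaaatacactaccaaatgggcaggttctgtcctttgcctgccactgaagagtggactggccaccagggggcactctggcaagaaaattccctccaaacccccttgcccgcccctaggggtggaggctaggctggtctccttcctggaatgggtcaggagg

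In Cyp8b1 the capitals join CAAAGTCCA, 67 to 59 bases before the start, and CAAGGGCA, 60 to 53 bases before it, which share 2 bases. Cyp2c70 carried CAAAGTCCA at nearly the same distance, 64 to 56 bases before the start. The Hsd3b7 window held none of the 3 motifs, and of the remaining windows that of Cyp27a1 held TTATGAAA and that of Akr1d1 held TTATGCAA. Cyp8b1 was lower and Cyp2c70 higher in HFD than in regular chow. A match is a run of letters and not a measured binding site.

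Cyp27a1 (gene ID 104086, chromosome 1, 74713146 to 74737896, plus strand, 9 exons), the mitochondrial sterol hydroxylase that opens the alternative pathway and also works on the side chain, measured 497 CPM in HFD + DfCS-Ib, 577 CPM in HFD and 474 CPM in regular chow. It was 1.22-fold (1.18 to 1.26) higher in HFD than in regular chow and 1.16-fold (1.12 to 1.20) lower in HFD + DfCS-Ib than in HFD. Both distances were common, since 47.7% and 54.4% of measured genes were at least as far apart. The log2 ratios of all measured genes had an SD of 0.55 and 0.49.

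Cyp7b1 (gene ID 13123, chromosome 3, 18071950 to 18243893, minus strand, 6 exons), the next enzyme of the alternative pathway, gave another picture. It measured 567 CPM in HFD + DfCS-Ib, 255 CPM in HFD and 267 CPM in regular chow, from 6084, 3280 and 2877 counts. The libraries without DfCS-Ib lay close together and the library with it stood above both. The level was 2.22-fold (2.13 to 2.32) higher in HFD + DfCS-Ib than in HFD, as far apart as 3.01% of measured genes, and 2.12-fold (2.03 to 2.22) higher than in regular chow, as far apart as 1.47%. Between HFD and regular chow the fold was 0.953 (0.907 to 1.003), and the log2 ratio of -0.07 turned to 0.03 without the composition factor, so no direction is given for it. Cyp7b1 was the only gene of the 10 to pass the 2-fold mark in both comparisons with HFD + DfCS-Ib and not between HFD and regular chow.

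Hsd3b7 (gene ID 101502, chromosome 7, 127800609 to 127803802, plus strand, 7 exons), which oxidises the sterol ring after the first hydroxylation, measured 387 CPM in HFD + DfCS-Ib, 688 CPM in HFD and 274 CPM in regular chow. The HFD library was the highest and the other two lay closer to each other. The level was 2.51-fold (2.41 to 2.62) higher in HFD than in regular chow, with 2.90% of measured genes at least as far apart. It was 1.78-fold (1.71 to 1.84) lower in HFD + DfCS-Ib than in HFD and still 1.41-fold (1.35 to 1.48) higher than in regular chow, which places it 72.7% of the way from HFD to regular chow. By RPKM it was the second most abundant of the 10 transcripts in HFD, against rank 6 in HFD + DfCS-Ib and rank 4 in regular chow.

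Akr1d1 (gene ID 208665, chromosome 6, 37529978 to 37568815, plus strand, 9 exons), the reductase that saturates the ring and bends the steroid skeleton, measured 130 CPM in HFD + DfCS-Ib, 242 CPM in HFD and 171 CPM in regular chow. It was the only gene of the 10 whose CPM in HFD + DfCS-Ib lay below both other libraries. It was 1.41-fold (1.33 to 1.499) higher in HFD than in regular chow and 1.86-fold (1.74 to 1.98) lower in HFD + DfCS-Ib than in HFD, short of the 2-fold mark in both. The level in HFD + DfCS-Ib was 1.31-fold (1.22 to 1.41) below regular chow. A gene model on the opposite strand, Gm33429, overlaps it and had 0, 0 and 6 counts.

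Amacr (gene ID 17117, chromosome 15, 10981756 to 10996624, plus strand, 5 exons), the racemase that prepares the side chain for peroxisomal shortening, measured 149 CPM in HFD + DfCS-Ib, 160 CPM in HFD and 111 CPM in regular chow. It was 1.44-fold (1.34 to 1.55) higher in HFD than in regular chow and 1.34-fold (1.25 to 1.45) higher in HFD + DfCS-Ib than in regular chow. Both HFD-fed libraries thus lay above regular chow, 1.07-fold (1.01 to 1.15) apart from each other. Slc45a2, which overlaps it on the same strand, had 7, 5 and 7 counts.

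The conjugation genes differed least. Slc27a5 (gene ID 26459, chromosome 7, 12988346 to 12998192, minus strand, 10 exons), the ligase that activates bile acids with coenzyme A, measured 1221.5 CPM in HFD + DfCS-Ib, 1115.5 CPM in HFD and 1078.1 CPM in regular chow. It was 1.10-fold (1.07 to 1.12) higher in HFD + DfCS-Ib than in HFD and 1.13-fold (1.105 to 1.16) higher than in regular chow. Per length it had the highest value of the 10 transcripts in every library, at 513, 502 and 451 RPKM, but in regular chow its counting interval met that of Cyp8b1, so its place there is not settled.

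Baat (gene ID 12012, chromosome 4, 49489416 to 49507912, minus strand, 4 exons), the transferase that puts the amino acid on, measured 461 CPM in HFD + DfCS-Ib, 437 CPM in HFD and 473 CPM in regular chow. It was 1.08-fold (1.04 to 1.12) lower in HFD than in regular chow. Between HFD + DfCS-Ib and HFD the fold was 1.05 (1.01 to 1.09), and its log2 ratio of 0.07 turned to -0.03 without the composition factor, so no direction is given. Gm32894, a gene model on the opposite strand, spans most of Baat and had 32, 53 and 65 counts, few beside the 4941, 5629 and 5093 counts of Baat.

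Cyp2c70 (gene ID 226105, chromosome 19, 40153361 to 40187286, minus strand, 9 exons) is the cytochrome that makes muricholic acids, which mice have and humans lack. It measured 387 CPM in HFD + DfCS-Ib, 414 CPM in HFD and 109 CPM in regular chow, from 4149, 5325 and 1172 counts. The HFD-fed libraries lay together and regular chow stood far below them. The level was 3.80-fold (3.57 to 4.05) higher in HFD than in regular chow, as far apart as 1.06% of measured genes. It was 3.55-fold (3.33 to 3.79) higher in HFD + DfCS-Ib than in regular chow, as far apart as 0.258%, and only 1.07-fold (1.03 to 1.11) lower in HFD + DfCS-Ib than in HFD. Its place in HFD + DfCS-Ib was 8.89% of the way from HFD to regular chow, against 55.8% for Cyp7a1, 75.02% for Cyp8b1 and 72.7% for Hsd3b7. Cyp2c70 has close copies in the Cyp2c family, and the sources used here do not say how reads with several placements were counted.

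**Figure D2:**
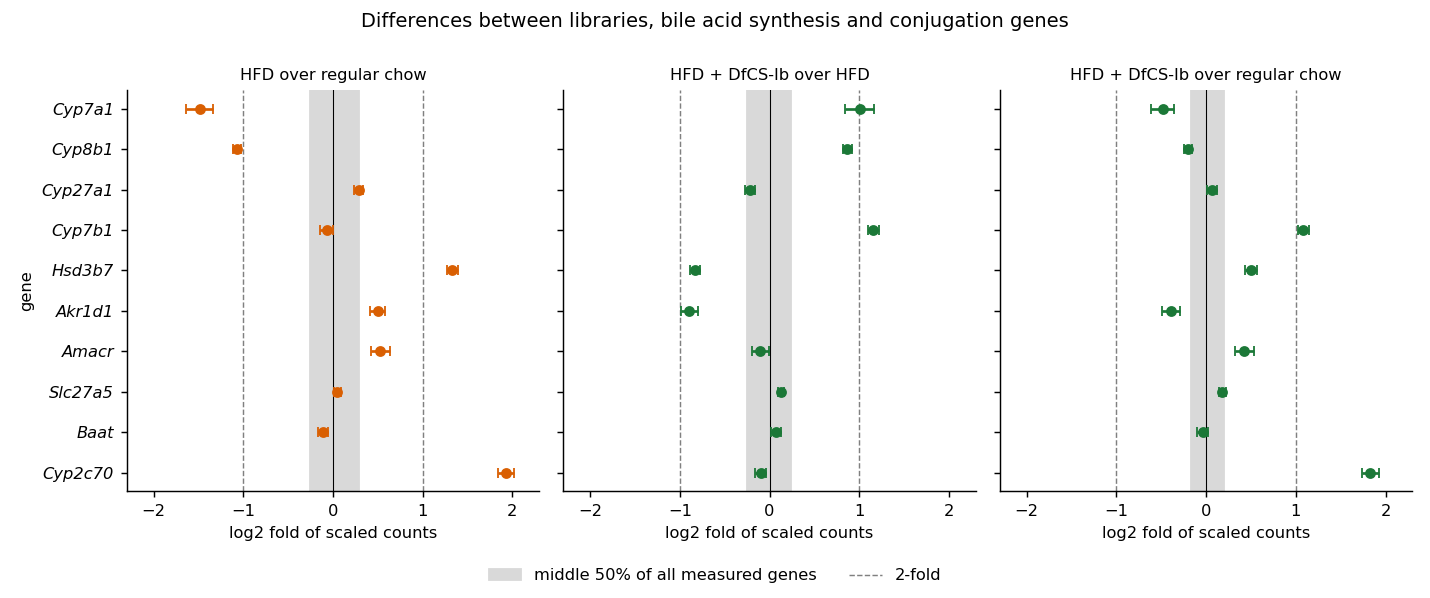
Log2 fold of scaled counts of each of the 10 genes in the 3 comparisons, with 95% exact counting intervals; the grey band holds the middle 50% of all 13153 measured genes (log2 ratio of CPM plus 1) and dashed lines mark 2-fold. In HFD over regular chow, Cyp7a1 and Cyp8b1 lie left of the lower line and Hsd3b7 and Cyp2c70 right of the upper line; with HFD + DfCS-Ib on top, Cyp7b1 passes the upper line over HFD and over regular chow, and Cyp7a1 touches it over HFD.

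By CPM, the HFD + DfCS-Ib library lay between HFD and regular chow for 7 of the 10 genes, above both for 2 (Cyp7b1 and Slc27a5) and below both for 1 (Akr1d1). By RPKM, which carries no composition factor, these counts were 6, 2 and 2, since Baat moved below both. A place between the other libraries covers unlike cases, among them Cyp8b1 close to regular chow and Cyp2c70 close to HFD.

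Summed over the 10 genes, the RPKM was 1990 in HFD + DfCS-Ib, 2002 in HFD and 1637 in regular chow, and the genes took 0.453% (0.450 to 0.457), 0.455% (0.451 to 0.459) and 0.385% (0.381 to 0.388) of all counts. On these measures, which carry no composition factor, the HFD-fed libraries had nearly equal totals but unlike make-up. By TMM-scaled CPM the sums were 4637 in HFD + DfCS-Ib, 4344 in HFD and 3941 in regular chow. Cyp8b1 supplied 19.1% of the summed RPKM in HFD + DfCS-Ib, 11.1% in HFD and 26.7% in regular chow. Hsd3b7 supplied 10.4%, 19.8% and 8.96%, and Cyp7b1 11.5%, 5.48% and 6.55%, in the same order. Cyp2c70 supplied 11.1%, 12.7% and 3.80%. The conjugation pair of Slc27a5 and Baat supplied similar shares throughout, at 32.6%, 32.0% and 36.1%.

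**Figure D3:**
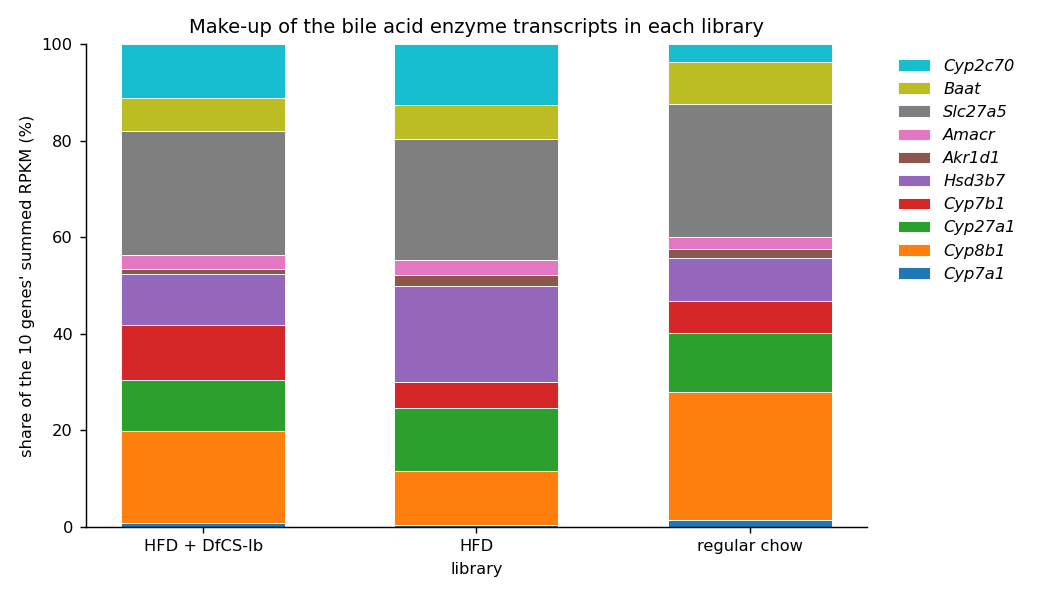
Share (%) of the summed RPKM of the 10 genes that each gene supplied in the HFD + DfCS-Ib, HFD and regular chow libraries; each column adds to 100%. The Cyp8b1 block is 19.1%, 11.1% and 26.7% tall, the Hsd3b7 block 10.4%, 19.8% and 8.96%, and the Cyp7b1 block is tallest in HFD + DfCS-Ib at 11.5%.

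Slc27a5 had the highest RPKM in every library, though in regular chow its counting interval met that of Cyp8b1. By the deposited gene lengths, Amacr, Akr1d1 and Cyp7a1 took the last places in that order in all 3. These lengths are 5501 bases for Akr1d1 and 3302 for Baat, whereas their longest GENCODE transcripts have 2699 and 1941 bases. The order of genes and their shares of the summed RPKM thus depend on the length used, and the counting intervals do not cover this. In HFD + DfCS-Ib the middle held Cyp8b1 at 380 RPKM, then Cyp7b1 at 228, Cyp2c70 at 221, Cyp27a1 at 209 and Hsd3b7 at 208 RPKM. The counting intervals of these last 4 met from each gene to the next, so their order is not settled. In HFD the middle ran from Hsd3b7 at 395 RPKM through Cyp27a1 at 260 and Cyp2c70 at 254, whose intervals met, to Cyp8b1 at 223, Baat at 139 and Cyp7b1 at 110 RPKM. In regular chow Cyp8b1, at 436 RPKM, stood next to Slc27a5 at 451 RPKM with their order not settled, and Hsd3b7 at 147 RPKM met that of Baat at 140 RPKM. Cyp2c70 stood at rank 4 in both HFD-fed libraries, against rank 7 in regular chow.

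Ratios of RPKM between genes of a library need no scaling across libraries, though their size depends on the gene lengths used. Cyp7b1 over Cyp7a1, the hydroxylases that act at the same ring position in the alternative and classic pathways, was 14.6 in HFD + DfCS-Ib, 13.1 in HFD and 4.91 in regular chow. The HFD-fed libraries differed by 1.11-fold (0.986 to 1.25) in this ratio, within counting error, while HFD was 2.67-fold (2.38 to 2.9998) above regular chow and HFD + DfCS-Ib 2.97-fold (2.69 to 3.27) above it. The same ratio arose from unlike levels, since both genes were about 2-fold higher in HFD + DfCS-Ib than in HFD. Cyp7b1 over Cyp27a1, the consecutive enzymes of the alternative pathway, was 1.09, 0.422 and 0.539, and HFD + DfCS-Ib was 2.59-fold (2.45 to 2.73) above HFD. Cyp2c70 over Cyp8b1, the hydroxylases of muricholic and cholic acid synthesis, was 0.582, 1.14 and 0.142. HFD exceeded regular chow 7.98-fold (7.43 to 8.57) in that ratio, and HFD + DfCS-Ib exceeded regular chow 4.09-fold (3.80 to 4.39). Cyp8b1 over Cyp7a1 was steadier, at 24.3, 26.7 and 20.0, and between HFD + DfCS-Ib and HFD it differed by 0.910-fold (0.811 to 1.021). Hsd3b7 over Akr1d1 was 8.97, 8.58 and 4.84, with a fold of 1.04 (0.971 to 1.12) between the HFD-fed libraries.

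Other genes of the pathway were read from lists of function. Of 15 other synthesis and electron supply genes, 14 were measured. In HFD against regular chow 1 passed the 2-fold mark upward and 2 downward, beside 3.47% and 2.27% of all measured genes, with a median log2 ratio of -0.10. Por, the reductase that passes electrons to Cyp7a1, Cyp8b1, Cyp7b1 and Cyp2c70 in the endoplasmic reticulum, measured 904 CPM in HFD + DfCS-Ib, 177 CPM in HFD and 754 CPM in regular chow. It was 5.10-fold (4.87 to 5.34) higher in HFD + DfCS-Ib than in HFD, and lowest in HFD as Cyp7a1 and Cyp8b1 were. Cyp39a1, which hydroxylates oxysterols, measured 50.1, 27.8 and 103 CPM in the same order and was 3.72-fold (3.30 to 4.20) lower in HFD than in regular chow and 2.07-fold (1.86 to 2.29) lower in HFD + DfCS-Ib than in regular chow. With RPKM plus 1 the difference of Cyp39a1 between HFD + DfCS-Ib and regular chow fell short of the mark. Stard4, a carrier of cholesterol between membranes, ran the other way at 48.5, 170 and 31.2 CPM and was 5.45-fold (4.86 to 6.13) higher in HFD than in regular chow and 3.51-fold (3.19 to 3.87) lower in HFD + DfCS-Ib than in HFD. Gene models on the opposite strand of Por and Cyp39a1 had at most 5 counts.

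None of the 8 measured regulators was at least 2-fold apart in any comparison. Of all measured genes, 5.74% were that far apart in either direction in HFD against regular chow. The shares were 4.49% in HFD + DfCS-Ib against HFD and 2.05% in HFD + DfCS-Ib against regular chow. A list of 8 genes with none is near these shares. Nr1h4, which encodes FXR, measured 129 CPM in HFD + DfCS-Ib, 111 CPM in HFD and 120 CPM in regular chow. Its target Nr0b2, a repressor of Cyp7a1 transcription, measured 51.8, 44.8 and 63.5 CPM, and was lowest in the same library as Cyp7a1. Nr5a2, an activator of Cyp7a1 and Cyp8b1, measured 75.4, 72.1 and 77.9 CPM. Hnf4a, which is named here after its values were seen, measured 1186 CPM in HFD + DfCS-Ib, 812 CPM in HFD and 1319 CPM in regular chow, in the library order of Cyp7a1 and Cyp8b1. Its log2 ratio of -0.70 in HFD over regular chow was the farthest from 0 of the 8 regulators there, and Hnf4aos on its opposite strand had 37, 110 and 25 counts. Cyp2c70, whose window held the same HNF4A motif as that of Cyp8b1, had another library order, and no window of Cyp7a1 was matched. A part of Hnf4a in the differences of the enzyme genes was not tested. Of the hepatocyte receptor for FGF15, Fgfr4 measured 23.9, 37.8 and 36.6 CPM, lower in HFD + DfCS-Ib than in HFD by 1.59-fold (1.36 to 1.85), and its partner Klb measured 47.8, 42.7 and 66.4 CPM. Fgf15 itself, made in the ileum, was listed at 0 counts in all 3 liver libraries.

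Of 14 transporter genes 12 were measured. In HFD against regular chow 2 passed the 2-fold mark upward and 1 downward, beside 3.47% and 2.27% of all measured genes, with a median log2 ratio of 0.25. Abcb11, the export pump for bile salts, measured 589 CPM in HFD + DfCS-Ib, 936 CPM in HFD and 419 CPM in regular chow, and was 2.24-fold (2.16 to 2.31) higher in HFD than in regular chow. Abcb4, which moves phosphatidylcholine into bile, measured 595, 293 and 506 CPM and was 2.03-fold (1.95 to 2.11) higher in HFD + DfCS-Ib than in HFD, a call that was lost without the composition factor. Among uptake carriers, Slco1a1 measured 708, 647 and 286 CPM, and Slco1a4 measured 204, 65.0 and 530 CPM. Slco1a1 was lowest in regular chow, as Cyp2c70 was, and Slco1a4 was highest there. These carriers have close copies and Slco1a1 is overlapped by Gm30843 on the opposite strand (197, 219 and 102 counts), so their values are uncertain.

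**Figure D4:**
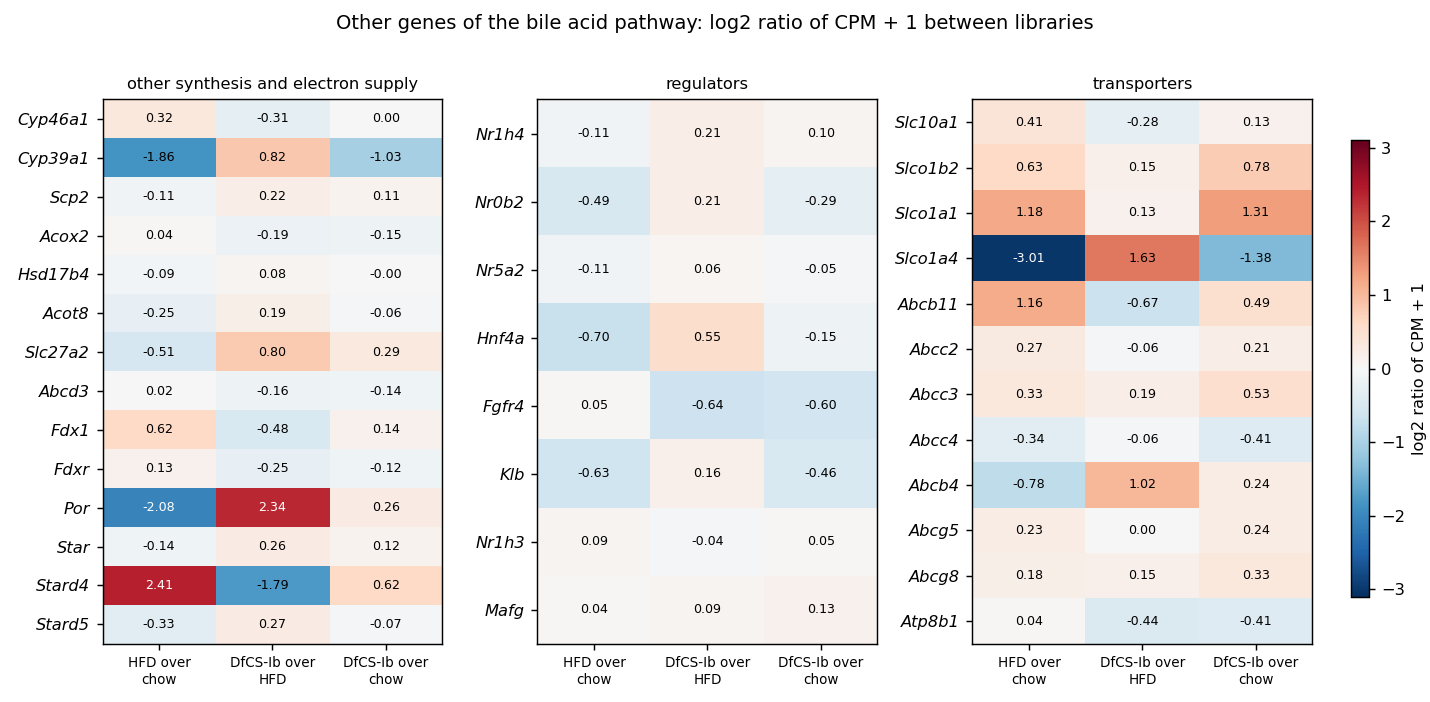
Log2 ratio of CPM plus 1 of the other measured pathway genes in the 3 comparisons (blue lower, red higher in the library named on top), for other synthesis and electron supply genes, regulators and transporters. Por (-2.08 in HFD over regular chow, 2.34 in HFD + DfCS-Ib over HFD), Stard4 (2.41 and -1.79) and Slco1a4 (-3.01 and 1.63) lie farthest from 0, and no regulator reaches 1 on either side.

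Some cell type and state markers differed between the same libraries. Of all measured genes, 3.47% were at least 2-fold higher and 2.27% lower in HFD than in regular chow. Between HFD + DfCS-Ib and HFD these shares were 2.46% and 2.02%, and between HFD + DfCS-Ib and regular chow 1.62% and 0.433%. The 9 periportal hepatocyte markers summed to 9178 CPM in HFD + DfCS-Ib, 5076 CPM in HFD and 10776 CPM in regular chow, the same order as Cyp7a1 and Cyp8b1, with 5 of 9 at least 2-fold lower in HFD than in regular chow (Ass1, Asl, Sds, Etnppl and Pck1). Cyp2f2 (1178 against 963 CPM) and Aldh1b1 (45.2 against 43.2 CPM) were instead higher in HFD than in regular chow. Pck1, the largest single value in the sum (5076, 2054 and 4582 CPM), was highest in HFD + DfCS-Ib and so did not follow that order. The 9 pericentral markers summed to 12093, 9171 and 9444 CPM, highest in HFD + DfCS-Ib as Cyp7b1 was, and most of the sum was Cyp2e1 (8796, 6671 and 6278 CPM). Their 2-fold differences ran in both directions, with Cyp1a2 higher and Oat lower in HFD than in regular chow, and Oat and Slc1a2 higher and Lgr5 lower in HFD + DfCS-Ib than in HFD. Clock genes of the Dbp phase summed to 383, 227 and 277 CPM over 9 measured of 10, with Dbp, Nr1d1 and Ciart at least 2-fold higher in HFD + DfCS-Ib than in HFD. Per1 and Ciart were at least 2-fold lower in HFD than in regular chow. Dbp, Nr1d1 and Bhlhe41 were at least 2-fold higher in HFD + DfCS-Ib than in regular chow. Dbp itself was lowest in regular chow (13.1, 6.06 and 3.35 CPM), unlike the sum. The 5 clock genes of the opposite, Arntl phase summed to 218, 199 and 248 CPM, with a median log2 ratio of -0.77 in HFD + DfCS-Ib over HFD and Npas2 at least 2-fold lower there. Npas2 was also at least 2-fold higher in HFD than in regular chow. The 8 male-biased genes summed to 5231, 5348 and 3931 CPM, lowest in regular chow as Cyp2c70 was, with 5 of 8 at least 2-fold higher in HFD than in regular chow (Hsd3b5, Elovl3, Cyp4a12a, Selenbp2 and Nudt7). Unlike Cyp2c70, 2 of these (Hsd3b5 and Nudt7) were at least 2-fold lower in HFD + DfCS-Ib than in HFD. The median log2 ratio of the male-biased genes there was -0.45, with 5 lower and 3 higher. The 10 acute phase genes summed to 5587, 2760 and 4063 CPM, with 8 of 10 at least 2-fold higher in HFD + DfCS-Ib than in HFD. Orm2, Mt1 and Mt2 were at least 2-fold lower in HFD than in regular chow. Against regular chow, 5 of 10 were at least 2-fold higher in HFD + DfCS-Ib and 2 (Mt1 and Mt2) at least 2-fold lower. The 8 macrophage and Kupffer cell markers summed to 614, 345 and 281 CPM, highest in HFD + DfCS-Ib as Cyp7b1 was, and all 8 were above HFD there, Adgre1 and Marco at least 2-fold. Cholangiocyte markers summed to 40.8, 53.9 and 41.6 CPM, endothelial markers to 237, 203 and 229 CPM, and stellate cell markers to 359, 247 and 309 CPM. Among those measured, only the endothelial Lyve1 was at least 2-fold apart (24.1, 9.95 and 23.0 CPM). It was lower in HFD than in regular chow and higher in HFD + DfCS-Ib than in HFD. The part of zonation, time of day, sex-biased expression, acute phase response or other cells in the differences of the bile acid genes was not tested.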

How the data were processed

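The 3 libraries were 1 per group. The submitters' processing notes name TopHat2 for alignment and mm10 as the build. No source used here names the counting tool, annotation release, strand setting or handling of reads with several placements, so genes with close copies or overlapping models are uncertain. The authors deposited raw read counts per gene and the RPKM made from them, per the file headers; for genes of 100 counts or more this RPKM equalled count over length and library total within 0.000506%.

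CPM were made from the counts with TMM factors of 0.978 (HFD + DfCS-Ib), 1.048 (HFD) and 0.976 (regular chow) from edgeR 4.0.16 in R 4.3.3. A gene was kept from a mean of 1 CPM upward. Log2 ratios were taken on CPM plus 1, which understates low genes, and a gene was counted from 2-fold. Folds divide the scaled counts directly, and their 95% exact intervals treat a gene's counts in both libraries as a binomial split (scipy 1.17.1). Intervals and floors of 3 counts cover counting error only. The scripts were checked on simulated data.

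The alternatives were DESeq2 1.42.0 size factors, no TMM factor, RPKM plus 1, scaling without the 50 most abundant genes, no filter and a pseudocount of 0.1 CPM. The text names the 10 enzyme genes, Nr1h4, Nr0b2, Nr5a2, Fgfr4, Klb and any other pathway gene at least 2-fold apart, and gives other lists as counts and sums. Of 138 list entries, 136 matched by symbol and 2 by gene ID. The genes and lists were chosen with earlier results of these data known. Promoter windows come from RefSeq on GRCm38.p6 and exon numbers from GENCODE.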

Additional observations from a re-analysis of the deposited data

How the results depend on the processing

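Of 30 log2 ratios (10 genes in 3 comparisons), DESeq2 size factors and dropping the filter changed no sign and no call. On total counts without TMM factors, and with RPKM plus 1, 1 of 10 genes was at least 2-fold lower in HFD than in regular chow, against 2 with TMM, because Cyp8b1 stood at -0.97 and -0.96 in place of -1.07. Under these settings Cyp7b1 in HFD over regular chow (0.03 in both) and Baat in HFD + DfCS-Ib over HFD (-0.03 in both) also changed sign. Without the 50 most abundant genes, and with a pseudocount of 0.1 CPM, 2 of 10 were at least 2-fold higher in HFD + DfCS-Ib than in HFD, against 1, because Cyp7a1 stood at 1.003 and 1.0025 in place of 0.99. Leaving out those 50 genes changes more than the scaling. It shrinks the library size and so raises every CPM while 1 is still added, which makes the pseudocount weigh less. Without TMM factors the median over all genes moved to 0.11 in HFD over regular chow and to -0.10 in HFD + DfCS-Ib over HFD. The share of 2-fold genes that were higher was then 70.1% and 43.5%, and 70.9% and 42.9% with RPKM, against 60.5% and 54.9% with TMM. Counts over all genes moved by over 1.5 times with RPKM (166 lower in HFD than in regular chow against 298, 176 higher in HFD + DfCS-Ib than in HFD against 324, and 125 higher and 31 lower in HFD + DfCS-Ib than in regular chow against 213 and 57). Without the 50 most abundant genes 93 were lower in HFD + DfCS-Ib than in regular chow. With a pseudocount of 0.1 CPM the 3 comparisons had 704, 507 and 413 higher and 464, 407 and 170 lower genes. Of the pathway lists, 1 transporter in place of 2 was higher in HFD + DfCS-Ib than in HFD without TMM factors and with RPKM, and 0 other synthesis genes in place of 1 were lower in HFD + DfCS-Ib than in regular chow with RPKM. Beyond these constructions the cause was not tested. No paired analysis was possible because each group had 1 library, and for the same reason no replicate could be left out. Depth does not limit the enzyme genes, whose lowest count was 510, but the lack of replicates does: counting intervals say nothing of the spread between mice.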

Other observations

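Taurine, the amino acid that Baat attaches in mice, is made from cysteine, and 5 genes of its supply were looked at after the values of the other lists had been seen. None of the 4 measured was at least 2-fold apart in any comparison. Of all measured genes, 5.74% were that far apart in either direction in HFD against regular chow. The shares were 4.49% in HFD + DfCS-Ib against HFD and 2.05% in HFD + DfCS-Ib against regular chow. A list of 4 genes with none is near these shares. Cdo1, the cysteine dioxygenase, measured 2069 CPM in HFD + DfCS-Ib, 2033 CPM in HFD and 2246 CPM in regular chow. Csad, the decarboxylase of the next step, measured 160, 258 and 204 CPM in the same order, and was 1.61-fold lower in HFD + DfCS-Ib than in HFD and 1.26-fold (1.19 to 1.33) higher in HFD than in regular chow. The taurine carrier Slc6a6 followed the same order of libraries at 72.0, 115 and 98.5 CPM. Ado, another thiol dioxygenase, measured 20.0, 18.0 and 19.9 CPM, and Gadl1 was listed at 0 counts in all 3 libraries. The conjugating enzymes Slc27a5 and Baat did not share the order of Csad and Slc6a6.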
